A study of Homo sapiens with 6 samples.

Results

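TRIM24 binding in LNCaP cells was compared with and without androgen by the rank of each site rather than by its presence alone. LNCaP is an androgen-dependent human prostate cancer line derived from a lymph node metastasis. Both groups were held for 72 h in medium with charcoal/dextran-treated serum, which removes steroids. One then received ethanol vehicle for 4 h. The other was given dihydrotestosterone (DHT), the most active natural androgen, at 10 nM for the same time. TRIM24 sites were mapped by ChIP-seq, the sequencing of DNA that is immunoprecipitated with the protein, with 1 library per treatment. The members are the 7105 peaks of the DHT list and the 7105 best-scoring of the 9744 peaks of the vehicle list, together 14210 of the 37470 peaks of the series. The series also has a list of 20621 peaks from the castration-resistant derivative LNCaP-abl under vehicle, which served only to look sites up. There were no replicates, so the treatments are described side by side and no test between them was made.

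TRIM24 is a chromatin reader: its PHD finger and bromodomain together recognise a histone H3 tail that is unmethylated near its end and acetylated further along. It also carries a RING domain with ubiquitin ligase activity and acts as a coregulator of nuclear receptors, among them the androgen receptor. DHT binds the androgen receptor, which then enters the nucleus and occupies enhancers, many of them opened by forkhead factors. The comparison asks how TRIM24 sites stand relative to one another after short androgen exposure. Positions are in hg19. No annotation or sequence of that build was used here, so sites are given by position, and neither the genes near them nor their sequence is given.

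The score of a peak is the authors' own, a p-value or q-value on a −log10 scale, and rank 1 is the best score of a list. Scores at equal rank were lower under DHT at each of the 13 ranks looked up. At rank 100 the vehicle score was 50.4 and the DHT score 45.7, and at rank 1000 they were 14.5 and 13.4. The DHT score was 0.906 times the vehicle score at rank 100 and 0.924 times at rank 1000. It was 0.867 times at rank 4000, with 6.32 against 7.29, and 0.581 times at rank 7000, with 2.98 against 5.13. The kept vehicle list ended at a score of 4.96, within a block of 40 tied peaks of which 39 were kept, and the nearest scores on either side were 4.98 and 4.956. The DHT list ran on to 2.05, so that 1733 DHT peaks (24.4%) scored below the last vehicle peak kept. Kept vehicle peaks had a median width of 346 bp and DHT peaks of 296 bp. Deeper sequencing raises such scores. The depth of both libraries is unknown, and a difference in depth cannot be told apart from a difference in binding strength.

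**Figure D1:**
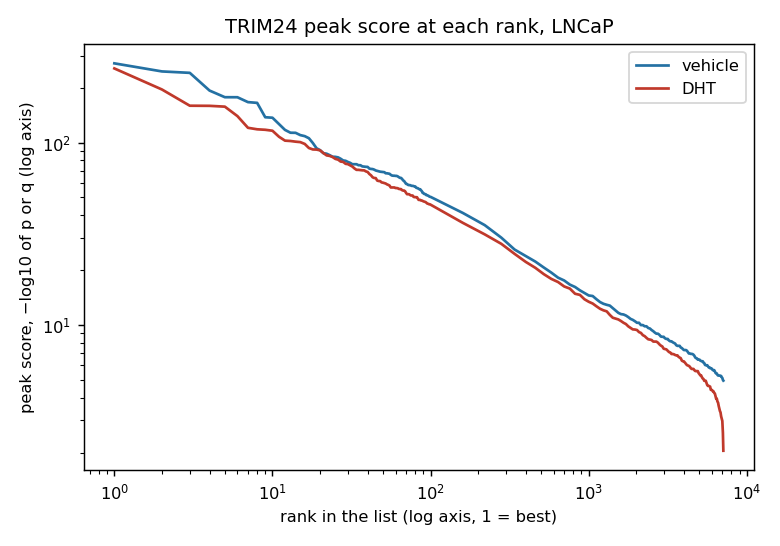
Peak score, −log10 of p or q, against rank within each list, both on log axes, for the vehicle and the DHT list of LNCaP. The DHT line ends lower, at 2.05 against 4.96 for vehicle.

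Ranks have limited resolution. The 7105 DHT peaks took 1284 distinct scores and the vehicle peaks 1231, and the most frequent single value was shared by 161 DHT peaks and by 265 vehicle peaks. Tied peaks were given their mean rank. A shift of 1000 places amounts to a large change in score near the top and a small one near the bottom. The vehicle score dropped from 50.4 to 14.1 over the 1000 places after rank 100, and from 6.46 to 5.71 over the 1000 places after rank 5000.

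The strongest peaks were found under both treatments, though in a different order. They included chr1:121483984-121485553, beside a centromere and at rank 4 in both lists, and a mitochondrial site at DHT rank 86 and vehicle rank 34. Whether peaks at such places reflect TRIM24 binding was not tested. Of the 100 best DHT peaks, 100 overlapped a kept vehicle peak by at least 1 bp, and 63 overlapped 1 of the 100 best vehicle peaks. Their vehicle partners had a median rank of 66.5, and the lowest-placed stood at rank 571.5. Of the 100 best vehicle peaks, 100 had a DHT partner, and the lowest-placed of these stood at DHT rank 496. Among the best 1000 of each list, 922 DHT and 953 vehicle peaks had a partner somewhere in the other list, and 604 DHT peaks had theirs within its best 1000. A site among the best 100 under one treatment was thus present in the other list, but 37 of 100 DHT peaks had no partner at that level.

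The share of peaks with a partner fell steadily down the ranks, and much alike in both lists. In ranks 1 to 1000 it was 92.3% of DHT peaks (95% exact interval 90.5 to 93.9) and 95.4% of vehicle peaks (93.9 to 96.6). In ranks 3001 to 4000 it was 52.2% (49.1 to 55.3) and 52.3% (49.03 to 55.5). The 2 shares were furthest apart in the last band, ranks 6001 to 7105, with 40.96% of DHT peaks (37.99 to 43.98) and 33.5% of vehicle peaks (30.7 to 36.3). Over all ranks 4165 DHT peaks had a partner, and 2940 (41.4%) had none. On the vehicle side 4084 had a partner, and 3021 (42.5%) had none. These and later intervals are for counting error alone. They take each peak as independent, although peaks close together are not.

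**Figure D2:**
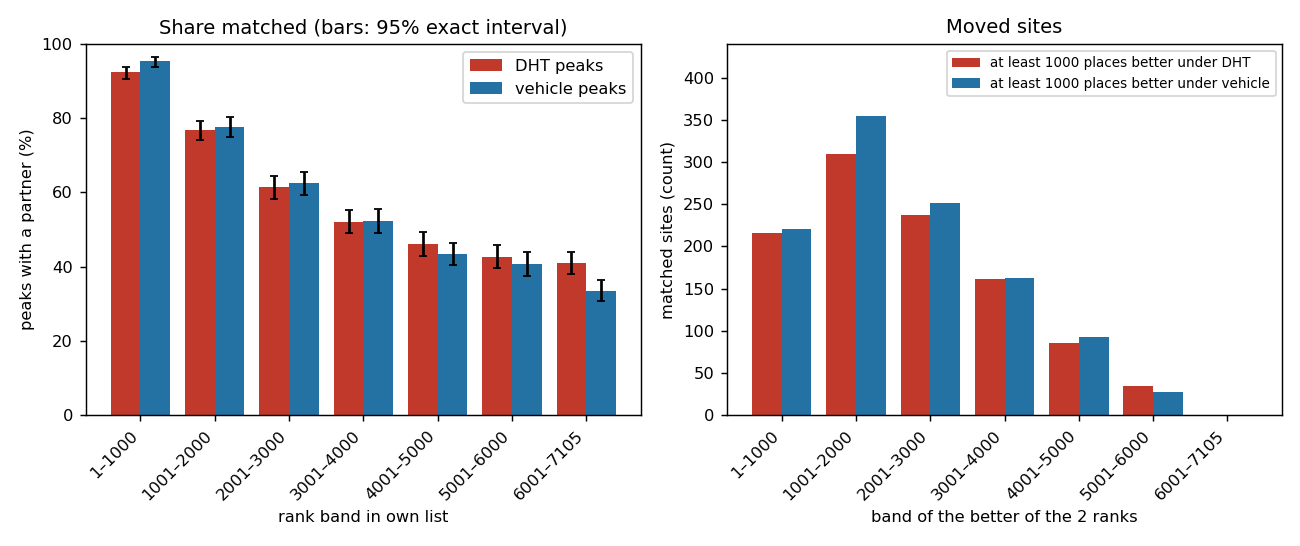
Left, the percentage of peaks with a partner in the other list by rank band, for DHT and vehicle peaks, with 95% exact intervals. Right, the number of matched sites that moved at least 1000 places in either direction, by the band of their better rank, highest in ranks 1001 to 2000 with 310 and 355 sites.

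Where several peaks overlapped, the reciprocal best-ranked partners were taken, which gave 3963 matched sites. Rank changes at these sites were wide and went in both directions in similar numbers. Ranks in lists of equal length are relative, so a gain at some sites goes with a loss at others. A rise or fall in binding common to all sites cannot show in them. The median change was 29.5 places in favour of vehicle, and the middle 50% of sites ran from 1229 places better under vehicle to 1089 places better under DHT. The median size of the change, in either direction, was 1166 places. Better ranks under DHT were held by 1912 sites and better ranks under vehicle by 2046, with 5 equal. Calling a shift of at least 1000 places, 1043 sites (26.3%) gained rank under DHT and 1110 (28%) lost rank. Which direction was the more frequent depended on the setting: there were 718 gains and 683 losses when partners had to cover at least 50% of each other, and 1593 gains and 1110 losses with all 9744 vehicle peaks kept. A gain of at least 5000 places was seen at 35 sites and a loss of that size at 48. Ranks under the 2 treatments had a Spearman rho of 0.54 over the 3963 sites, which share their cell line and its copy number. How far ranks move between 2 libraries of the same treatment is unknown here.

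**Figure D3:**
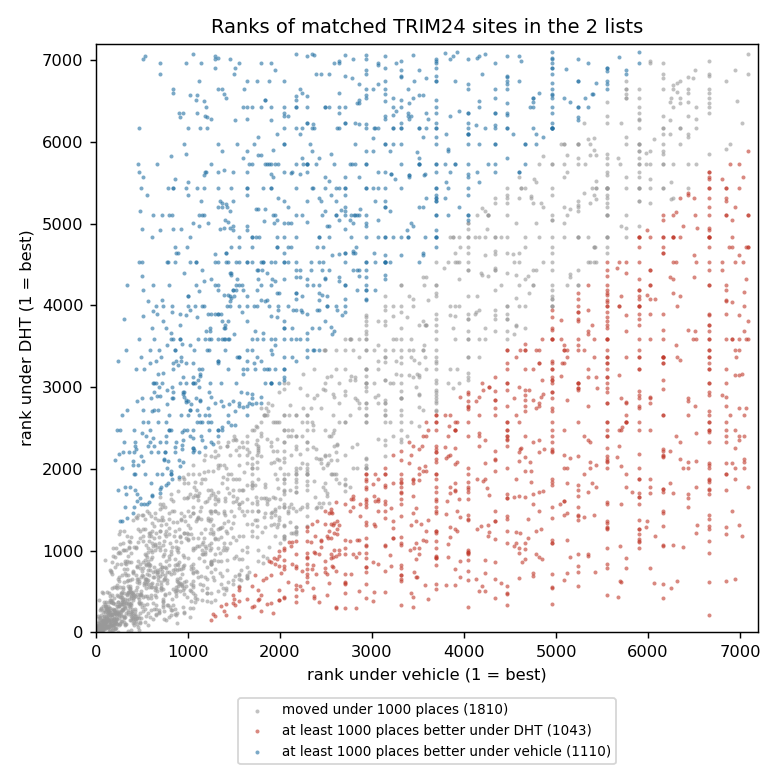
Rank under DHT against rank under vehicle for the 3963 matched sites, both on linear axes with 1 as the best rank, coloured by direction for shifts of at least 1000 places. Sites among the 100 best of either list lie close to the diagonal. Of the 1043 gains and 1110 losses, 216 and 221 had their better rank within 1000.

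Rank changes grew from the top of the lists to the middle. Among the 1255 sites whose better rank was within 1000, the median size of the change was 473.5 places, and 216 gained and 221 lost at least 1000. In the next band it was 1614 places, with 310 gains and 355 losses, and in ranks 2001 to 3000 it was 1886 places, with 237 gains and 251 losses. Sites whose better rank was beyond 6000 had little room to move and held 0 gains and 0 losses of that size.

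Scores at the matched sites were compared as well. The score under DHT was a median of 0.846 times that under vehicle at the same site, a ratio of 2 values on a −log10 scale and not a fold change of binding. After division by this median, 779 sites (19.7%) scored at least 1.5 times as high under DHT and 800 (20.2%) at least 1.5 times as high under vehicle. That division places as many sites above the median as below it, so similar counts follow largely from it.

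Peak width moved with rank. Sites that lost rank had a median width of 289 bp under DHT and 424.5 bp under vehicle, and 72.3% of them were wider under vehicle. For sites that gained rank the medians were 353 bp and 338 bp, and 55.0% were wider under DHT. Of the 1110 sites that lost rank, 157 had a DHT peak at 200 bp, the narrowest width in the lists, and 16 had a vehicle peak of that width. Across the 3963 sites the rank change and the log2 ratio of widths had a Pearson r of 0.30, a description over sites whose score and width come from the same reads.

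The 5 matched sites with the best lower rank kept their places to within 5 ranks, as follows from how they were picked. The site on chromosome 6 at chr6:170492303-170492828 was at rank 2 in both lists, scoring 195 under DHT and 245 under vehicle. The site at chr11:66188532-66190079 was first under DHT and at rank 5 under vehicle, and its score was higher under DHT, 255 against 177. The best vehicle site, chr5:177026795-177027334, went the other way, with 272 under vehicle and 139.7 under DHT, at rank 6. The 2 scores of a site differed by 1.21 to 1.95 times over these 5 sites.

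The 10 gains described here are the largest among matched sites within the best 1000 of the DHT list. Some gains of similar size ended below rank 1000 and are not named. The first of the 10, at chr1:11610748-11610997, was from rank 6666 to rank 205, its score going from 5.29 under vehicle to 32.0 under DHT. It was the only 1 of these 10 gains without a LNCaP-abl peak. Next came chr14:51027235-51027665, with 5.17 under vehicle and 16.8 under DHT, and chr15:63340475-63340799, with 5.26 and 17.4. The site at chr9:23826246-23826540 went from 5.29 to 17.4, and chr2:182542629-182543066 from 5.66 to 21.6. These last 2 had weak LNCaP-abl peaks, scoring 8.40 and 7.55.

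LNCaP-abl peaks at the sites on chromosomes 14 and 15 scored 32.2 and 143, and at the remaining 5 of these gains from 45.2 upwards. At chr19:55987898-55988202 the score was 5.57 under vehicle and 18.9 under DHT, with 145 in LNCaP-abl. The site at chr22:22089794-22090197 had 5.29 and 13.7, with 125.7 in LNCaP-abl. Sites at chr9:132145225-132145544, chr2:47596145-47596555 and chr7:65338011-65338346 rose from 5.50, 5.66 and 5.71 to 17.4, 17.7 and 17.5. All 10 vehicle scores lay between 5.17 and 5.71 and all 10 DHT scores between 13.7 and 32.0, so the 2 ranges did not overlap, as follows from how the sites were picked. The DHT peak was the wider at 6 of the 10.

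The 10 losses described here are the largest among matched sites within the best 1000 of the vehicle list. The first, at chr7:100424874-100425422, was from rank 528.5 to rank 7048.5, its score going from 20.4 under vehicle to 2.64 under DHT. Its width went from 549 bp to 241 bp. A further 2 of these 10 losses were on chromosome 7. At chr7:124405509-124405885 the score was 20.7 under vehicle and 2.95 under DHT. At chr7:139876155-139877494 it was 17.5 and 3.02, and a vehicle peak of 1340 bp stood against a DHT peak of 200 bp. The chromosome as a whole held 58 losses and 45 gains among 204 matched sites.

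The site at chr3:50442677-50442929 went from 17.5 to 3.32 and was the only 1 of the 10 losses without a LNCaP-abl peak. Then came chr9:86535844-86536543, from 14.7 to 3.02, chr19:18228703-18229131, from 15.97 to 3.60, and chr9:137000901-137001417, from 15.97 to 3.67. The highest vehicle score among these losses was 22.1, at chr1:41249231-41249600, where DHT gave 4.33. The last were chr8:56792284-56793257, from 15.4 to 4.07, and chr3:58477371-58478264, from 14.9 to 4.07. In 8 of the 10 the DHT peak was the narrower. LNCaP-abl scores ran from 62.2 to 154 with a median of 112 over the 9 losses with a peak, and from 7.55 to 145 with a median of 64.8 over the 9 such gains.

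**Figure D4:**
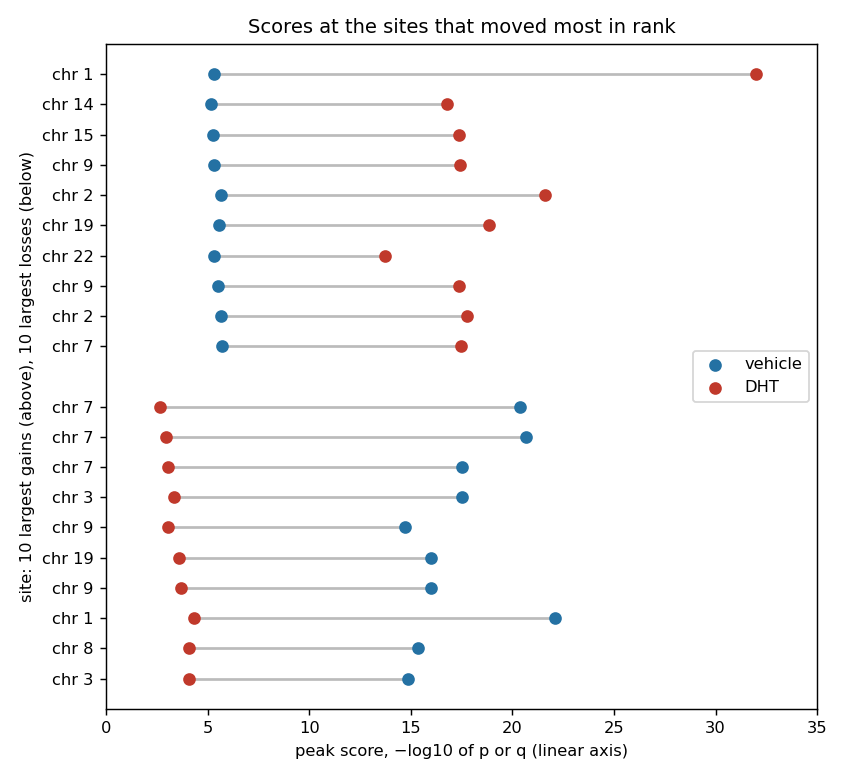
Peak score, −log10 of p or q, under vehicle and under DHT at the 10 sites with the largest rank gain and the 10 with the largest rank loss among sites within the best 1000 of either list, labelled by chromosome. Gains end between 13.7 and 32.0 under DHT, and losses start between 14.7 and 22.1 under vehicle.

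DHT peaks without a kept vehicle partner fell into different kinds. Of the 2940, 574 overlapped a vehicle peak that stood below the kept ranks, at a median rank of 8382, and 2366 overlapped no vehicle peak. The best of the first kind was chr9:126872612-126872893, at DHT rank 190.5 with a score of 33.7, where the vehicle list had a peak at rank 7430 scoring 4.81. Another was chr19:33792775-33793331, with 27.9 under DHT and 4.22 under vehicle at rank 8315.5. Both are rank gains that a comparison by presence in the kept lists would count as new sites.

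The remaining 6 of the 8 best overlapped no vehicle peak. They were led by chr19:7627680-7628181 at DHT rank 184, with a score of 34.3 and the nearest vehicle peak 26.9 kb away. The site at chr10:124671384-124671821 had a score of 26.3, and chr2:220196274-220196839 had 24.95. LNCaP-abl peaks at these 3 sites were weak, scoring 9.46, 13.6 and 19.6. The other sites, at chr1:26734990-26735422, chr16:11744117-11744411 and chr8:10847729-10848142, scored between 23.9 and 24.9 and had no LNCaP-abl peak. Of all 2366 DHT peaks without a vehicle peak, 631 (26.7%, 24.9 to 28.5) had a vehicle peak less than 1 kb away.

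The 8 best vehicle peaks without a DHT partner scored 19.6 to 24.3, against 23.9 to 34.3 for the 8 best unmatched DHT peaks. Each of these vehicle peaks had a LNCaP-abl peak. The first, chr11:73053673-73054465, was at vehicle rank 375 with a score of 24.3. It was followed by chr1:16970901-16971342 with 22.9, chr17:26972100-26972620 with 21.3 and chr7:3340464-3341015 with 20.8. The site on chromosome 7 lay 742 kb from the nearest DHT peak. Next came chr14:69445285-69445989 with 20.1, chr5:112823884-112824477 with 19.95 and chr19:9785511-9786179 with 19.9. The last, chr6:143382083-143382469, scored 19.6 and had a DHT peak 55 bp away, so that its absence rests on the overlap rule. LNCaP-abl scores at these 8 sites ran from 31.5 to 167 with a median of 123, against a median of 19.6 over the 5 of 8 DHT sites with a LNCaP-abl peak. Of all 3021 such vehicle peaks, 640 (21.2%, 19.7 to 22.7) had a DHT peak less than 1 kb away.

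Looked up in LNCaP-abl, which took no part in forming the classes, sites that lost rank under DHT had a peak more often than sites that gained. A LNCaP-abl peak was found at 1088 of 1110 losses (98.0%, 97.0 to 98.8), 1709 of 1810 sites that moved under 1000 places (94.4%, 93.3 to 95.4) and 956 of 1043 gains (91.7%, 89.8 to 93.3). Among sites whose better rank was within 1000, 3 of 221 losses and 23 of 216 gains had none. Against a LNCaP-abl list shortened to its 7105 best peaks the shares were 85.7% of losses (83.5 to 87.7) and 69.5% of gains (66.6 to 72.3). Sites that moved under 1000 places stood between, at 78.3% (76.4 to 80.2). The order of losses and gains turned over when partners had to cover at least 50% of each other. That setting asked the same of LNCaP-abl peaks in the look-up. Classes and look-up changed together there, and their shares in the reversal cannot be told apart. Of the losses and gains then formed, 39.4% and 43.2% had a LNCaP-abl peak. LNCaP-abl peaks had median widths of 1075.5 bp at losses and 972 bp at gains, against 289 to 424.5 bp for the LNCaP peaks of these classes.

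The difference held in each rank band against the shortened LNCaP-abl list and narrowed down the ranks. In better ranks 1 to 1000 it was 91.9% of losses (87.4 to 95.1) and 65.3% of gains (58.5 to 71.6). In ranks 1001 to 2000 it was 86.5% (82.5 to 89.9) and 67.4% (61.9 to 72.6). In ranks 2001 to 3000 it was 85.3% (80.3 to 89.4) and 71.7% (65.5 to 77.4). Beyond rank 3000 it was 80.2% (75.1 to 84.7) and 73.2% (67.6 to 78.3), where the intervals met. For sites that moved under 1000 places the shares in these bands were 80.2%, 81.7%, 74.1% and 74.0%. Gains thus lay below unmoved sites in the upper bands and close to them beyond rank 2000. Where a LNCaP-abl peak was present, its median score in the best band was 136 at losses and 86.8 at gains. Sites of that band that moved under 1000 places stood higher than both, at 185. Over the 3753 matched sites with a LNCaP-abl peak, its score had a Spearman rho of 0.39 with the vehicle score and 0.27 with the DHT score, a description over sites of 3 libraries. LNCaP-abl and the vehicle library also share the vehicle treatment, and treatment and library cannot be told apart here.

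**Figure D5:**
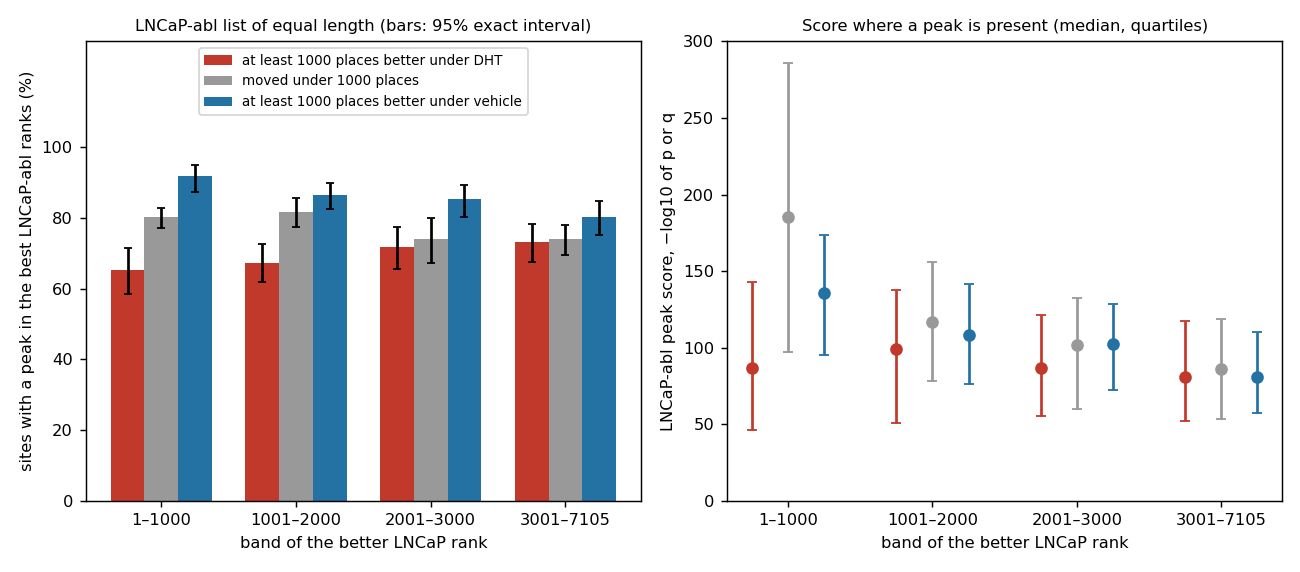
Left, the percentage of matched sites with a peak among the 7105 best of LNCaP-abl, by direction of rank change and by band of the better LNCaP rank, with 95% exact intervals. Right, the median and quartiles of the LNCaP-abl score where a peak was present. In the first band 91.9% of losses and 65.3% of gains had such a peak.

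Unmatched peaks differed in the same direction. A LNCaP-abl peak was found at 87.98% of vehicle peaks without a DHT partner (86.8 to 89.1) and at 80.3% of DHT peaks without a vehicle partner (78.8 to 81.7). The shares were 57.3% and 48.9% against the 7105 best LNCaP-abl peaks. They were 25.2% and 15.7% when partners, and LNCaP-abl peaks in the look-up, had to cover at least 50% of each other. In ranks 1 to 1000, by the 1 bp rule and the whole LNCaP-abl list, these were 42 of 46 vehicle peaks (91.3%, 79.2 to 97.6) and 46 of 76 DHT peaks (60.5%, 48.6 to 71.6). The gap was widest in that band and smaller further down, where most unmatched peaks lay. In ranks 3001 to 7105 it was 86.6% of 2372 vehicle peaks (85.2 to 88.0) and 81.3% of 2241 DHT peaks (79.7 to 82.9). Within these, ranks 5001 to 6000 had nearly equal shares, 84.3% of 561 vehicle and 83.8% of 604 DHT peaks. Over all ranks both unmatched classes lay below peaks with a partner, of which 94.7% had a LNCaP-abl peak in either list. In ranks 1 to 1000 that share was 97.0% for vehicle and 93.3% for DHT. Among unmatched DHT peaks the presence of a low vehicle peak went with LNCaP-abl. The 574 with a vehicle peak below the kept ranks had a LNCaP-abl peak in 94.9% of cases (92.8 to 96.6), and the 2366 with none in 76.8% (74.998 to 78.4).

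Rank gains and losses were spread over the genome. On the 22 autosomes and chromosome X the ratio of DHT to vehicle peaks ran from 0.882 on chromosome 22 to 1.12 on chromosome 21, and 0 of these 23 intervals excluded 1. These intervals take the 2 counts as independent, though matched sites enter both, so they cannot show that the lists are even. On chromosome 22, 62 DHT and 86 vehicle peaks had no partner, and on chromosome 21, 38 and 29. Losses outnumbered gains on 14 chromosomes and gains outnumbered losses on 9. Chromosome 14 leaned most to DHT, with 48 gains and 28 losses among 130 matched sites and a median change of 326 places. On the other side, chromosome 6 had 38 gains and 52 losses among 151, with a median of 273.5 places in favour of vehicle. Both were singled out after their values were seen.

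Neighbouring matched sites moved the same way little more often than in opposite ways, at any distance. Those less than 2 kb apart did so in 148 of 262 cases (56.5%, 50.2 to 62.6). At 10 to 50 kb it was 206 of 408 (50.5%, 45.5 to 55.4), and at 200 to 1000 kb 717 of 1376 (52.1%, 49.4 to 54.8). Neighbours more than 1000 kb apart gave 413 of 768 (53.8%, 50.2 to 57.3). By megabase, 773 windows held more DHT peaks, 769 more vehicle peaks and 538 equal numbers, and 43 of the 2080 windows differed by 5 peaks or more. The largest differences, picked after the values were seen, were chromosome 19 from 0 to 1 Mb, with 15 DHT and 26 vehicle peaks, and chromosome 17 from 7 to 8 Mb, with 21 and 13. Chromosome 18 from 12 to 13 Mb held 8 DHT peaks and 1 vehicle peak.

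Crowded groups of peaks beside centromeres were present under both treatments. Chromosome 10 from 42 to 43 Mb held 44 DHT and 41 vehicle peaks, with 5 gains and 2 losses among 34 matched sites. Chromosome 2 from 92 to 93 Mb held 29 and 27 peaks, and 9 of its 25 matched sites gained rank while 0 lost it, a window chosen after its values were seen. Of the 23 gains within the best 1000 that lacked a LNCaP-abl peak, 8 lay in 5 such windows, and of the 3 losses 0 did. On the mitochondrial genome lay 1 of these losses and 0 of these gains. Without these windows, the mitochondrial genome and chromosome Y, a LNCaP-abl peak was found at 98.5% of all losses (97.6 to 99.2) and 93.1% of all gains (91.4 to 94.6). The strongest mitochondrial site was at rank 86 under DHT and rank 34 under vehicle, with scores of 48.5 and 76.1.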

How the data were processed

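TRIM24 ChIP-seq peak lists of LNCaP cells under vehicle and under DHT were used, with the list of LNCaP-abl cells for look-up. FastQC 0.10.0, Bowtie 0.12.7, MACS2 2.0 and build hg19 are named in the submitters' processing notes. Read filters and the score cutoff are not stated there, nor whether the 3 inputs named in the labels were the control. The authors' deposited score is a −log10 value of MACS2, from either a p-value or a q-value, which the lists leave unsaid. Groups came from the labels.

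Each list was sorted by score, and the vehicle list was shortened to the length of the DHT list, ties at its end being broken by file order. Ties took the mean rank, computed in the whole list. Overlap was at least 1 bp. Matching was coded in Python 3.11.15 with pandas 2.3.3, numpy 2.4.6 and scipy 1.17.1, was tested on simulated lists, and gave as many matched peaks as bedtools 2.31.1. Matched sites are reciprocal best-ranked partners. Intervals are exact Clopper-Pearson 95% intervals. Figures used matplotlib 3.10.9. Starts are printed counting from 1.

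Named sites are the 10 largest rank gains and 10 largest losses among matched sites within the best 1000 of the list in which they rank better, the 8 best unmatched peaks of each list, and the 5 matched sites with the best lower rank. Members and rules were chosen with earlier results of these data known. Planned results on transcription starts, gene lists and motifs need hg19 annotation or sequence and were not run.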

Additional observations from a re-analysis of the deposited data

How the results depend on the processing

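Values come in the order DHT peaks with a partner, vehicle peaks with a partner, sites gaining and sites losing 1000 places, median size of the rank change, then the shares with a LNCaP-abl peak among gains, losses, unmatched DHT peaks and unmatched vehicle peaks. With a reciprocal overlap of at least 50% these were 39.7%, 39.7%, 718, 683, 987 places, 43.2%, 39.4%, 15.7% and 25.2%, so that gains exceeded losses in number and in LNCaP-abl share. Here, and with peaks of 400 bp or the 1 kb distance below, the changed rule also held for the LNCaP-abl look-up. With peaks of 400 bp they were 59.7%, 58.7%, 1065, 1140, 1182.5 places, 85.4%, 92.5%, 69.8% and 77.1%. With peaks less than 1 kb apart as partners they were 67.2%, 66.5%, 1043, 1129, 1153 places, 93.9%, 98.2%, 80.2% and 89.0%. In the best 3500 of each list they were 55.2%, 54.97%, 261, 267, 459 places, 90.8%, 97.8%, 83.6% and 94.7%, fewer ranks leaving less room to move. With all peaks of each list they were 66.7%, 48.6%, 1593, 1110, 1422.5 places, 92.8%, 98.0%, 76.8% and 82.4%. The gains grew there because vehicle ranks beyond 7105 exist and DHT ranks do not. Against a LNCaP-abl list of equal length, an alternative chosen after seeing the data, the last 4 shares were 69.5%, 85.7%, 48.9% and 57.3%. Calling 2000 places gave 580 gains and 682 losses, as follows from a stricter call. Calling 500 places gave 1313 and 1433, a 2-fold rank ratio 744 and 826, a 1.5-fold score ratio 779 and 800, and partners by nearest midpoint 1044 and 1139. Without the mitochondrial genome, chromosome Y and 5 megabases beside centromeres, all 9 results stayed within the interval of the standard setting or, for counts, within a factor of 1.5. LNCaP-abl peaks were more frequent at losses than at gains in 8 of 9 settings and at unmatched vehicle than at unmatched DHT peaks in 8 of 8, the standard setting included. For the other changes the cause was not tested. No paired analysis was possible because each treatment had 1 library, and for the same reason no library could be left out. The unknown depth limits any reading of absent peaks. Alternatives for transcription starts, gene lists and motifs were not run.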
